A study of Mus musculus with 20 samples.

Results

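The 10 genes described here belong to the amino acid response and the stress pathway that runs through the transcription factor ATF4, and all 10 were found by symbol among the 54532 genes counted in both tables. They are Atf4 itself, the transcription factor gene Ddit3, the pseudokinase gene Trib3, the amino acid synthesis genes Asns, Psat1 and Phgdh, the transporter subunit genes Slc7a5 and Slc3a2, the glutathione-degrading enzyme gene Chac1 and the secreted stress cytokine gene Gdf15. Their RNA was measured in 20 libraries of bulk plantaris muscle from male C57BL/6J mice, 5 months old, collected 10 days after surgery. Surgery was either sham or mechanical overload (MOV), in which part of the gastrocnemius and soleus is removed in both legs, so that the plantaris carries more load. At surgery each mouse received a control lentivirus in the left plantaris and a lentivirus carrying a miR-1 mimic in the right plantaris, which gave 5 libraries of each virus under each surgery (sham control and MOV control from the left muscle, sham mimic and MOV mimic from the right). Every muscle therefore received a virus. The construct was driven by a CMV promoter with a Turbo-GFP reporter, and this promoter is not restricted to muscle fibres.

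The amino acid response is a branch of the integrated stress response. Uncharged transfer RNA activates the kinase GCN2, and misfolded protein in the endoplasmic reticulum activates PERK. Both phosphorylate the initiation factor eIF2α, which lowers general protein synthesis while the open reading frame of Atf4 mRNA is read more often. ATF4 is thus set largely by translation, and its mRNA level is only one part of its activity. ATF4 protein binds composite C/EBP-ATF elements in the promoters of genes that make, import and charge amino acids. In skeletal muscle this programme is known from fasting, immobilisation, ageing and mitochondrial disease, in which ATF4 targets and the cytokines GDF15 and FGF21 rise, and mTORC1 can also raise ATF4 in growing cells.

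On GRCm38, Atf4 (ENSMUSG00000042406) lies on chromosome 15 from 80255184 to 80257545, Trib3 (ENSMUSG00000032715) lies on chromosome 2 from 152337425 to 152344060 and Chac1 (ENSMUSG00000027313) lies on chromosome 2 from 119351242 to 119354326. Asns (ENSMUSG00000029752) lies on chromosome 6 from 7675165 to 7693209, Psat1 (ENSMUSG00000024640) lies on chromosome 19 from 15905123 to 15925059 and Phgdh (ENSMUSG00000053398) lies on chromosome 3 from 98313171 to 98339969. Slc7a5 (ENSMUSG00000040010) lies on chromosome 8 from 121881146 to 121907686, Slc3a2 (ENSMUSG00000010095) lies on chromosome 19 from 8706882 to 8723369 and Gdf15 (ENSMUSG00000038508) lies on chromosome 8 from 70629393 to 70632470. These 9 genes overlap no other annotated gene, while Ddit3 (ENSMUSG00000025408) lies on chromosome 10 from 127290793 to 127296291 and overlaps Mbd6 and Mars1.

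The composite element is shown first because it is the sequence by which the genes of this set are held to be linked. RefSeq promoters of assembly GRCm38.p6, from 250 bases before to 50 bases after the start, were matched for 9 of the 10 genes, in 11 promoters, with no entry for Slc7a5. They were searched on both strands for TGATGNAA, which reads TTNCATCA on the other strand. The letters were found in 3 of the 11 promoters, those of Asns, Chac1 and Trib3, and in 3.97% of 32851 promoters of this length. The 3 windows of 48 bases below are printed 5′ to 3′ in the direction of the gene, with the motif in capitals. In Asns it lies on the gene's own strand from base -23 to base -16 relative to the start, in Chac1 on the opposite strand from base -193 to base -186, and in Trib3 on the opposite strand from base 14 to base 21 after the start.
Asns, chr6:7693205-7693252, minus strand: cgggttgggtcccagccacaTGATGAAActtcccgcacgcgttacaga
Chac1, chr2:119351029-119351076, plus strand: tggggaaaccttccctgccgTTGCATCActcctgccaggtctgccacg
Trib3, chr2:152344019-152344066, minus strand: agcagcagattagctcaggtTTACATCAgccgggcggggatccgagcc
The motif letters differ among the 3 genes at the base that the search left free, and Asns alone holds them on its own strand. A match in these windows is a description of the letters, and no binding was measured. Sequence outside these promoters was not searched, so a gene without a match may hold the letters elsewhere.

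Libraries held between 12036360 and 23056525 counts. Values below are CPM, counts scaled to a common library size after trimmed mean of M values (TMM) normalization. The 10 genes listed as markers of muscle fibres summed to between 77230 and 208106 CPM in every library, so the defining genes of the labelled tissue were present throughout. Replicate 1 of sham control and replicate 1 of sham mimic stood apart from the other sham libraries. Their 8 fibroblast marker genes summed to 1253 and 1842 CPM, against medians of 9259 and 9856 CPM in their groups, and their 6 proliferation markers to 6.61 and 5.71 CPM, against medians of 32.4 and 35.6 CPM. Their leukocyte markers were also the lowest of their groups, at 369 and 407 CPM against medians of 1137 and 931 CPM, and their fibre (207024 and 208106 CPM), erythroid and Schwann cell sums were the highest. Replicate 5 of MOV control had fibroblast markers at 4213 CPM against a median of 13492 CPM, leukocyte markers at 369.7 CPM against 984 CPM and the highest fibre sum of its group, 174673 CPM, and replicate 5 of MOV mimic had the lowest leukocyte, proliferation and satellite cell sums of its group. Replicate 4 of MOV mimic had a count for 15561 genes, against 18768 to 22300 in the other 19 libraries. Some of the values below are also given without the sham libraries of number 1 or without replicate 4 of MOV mimic. Since the tissue was bulk, fewer cells of a type and less RNA per cell cannot be told apart.

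**Figure D1:**
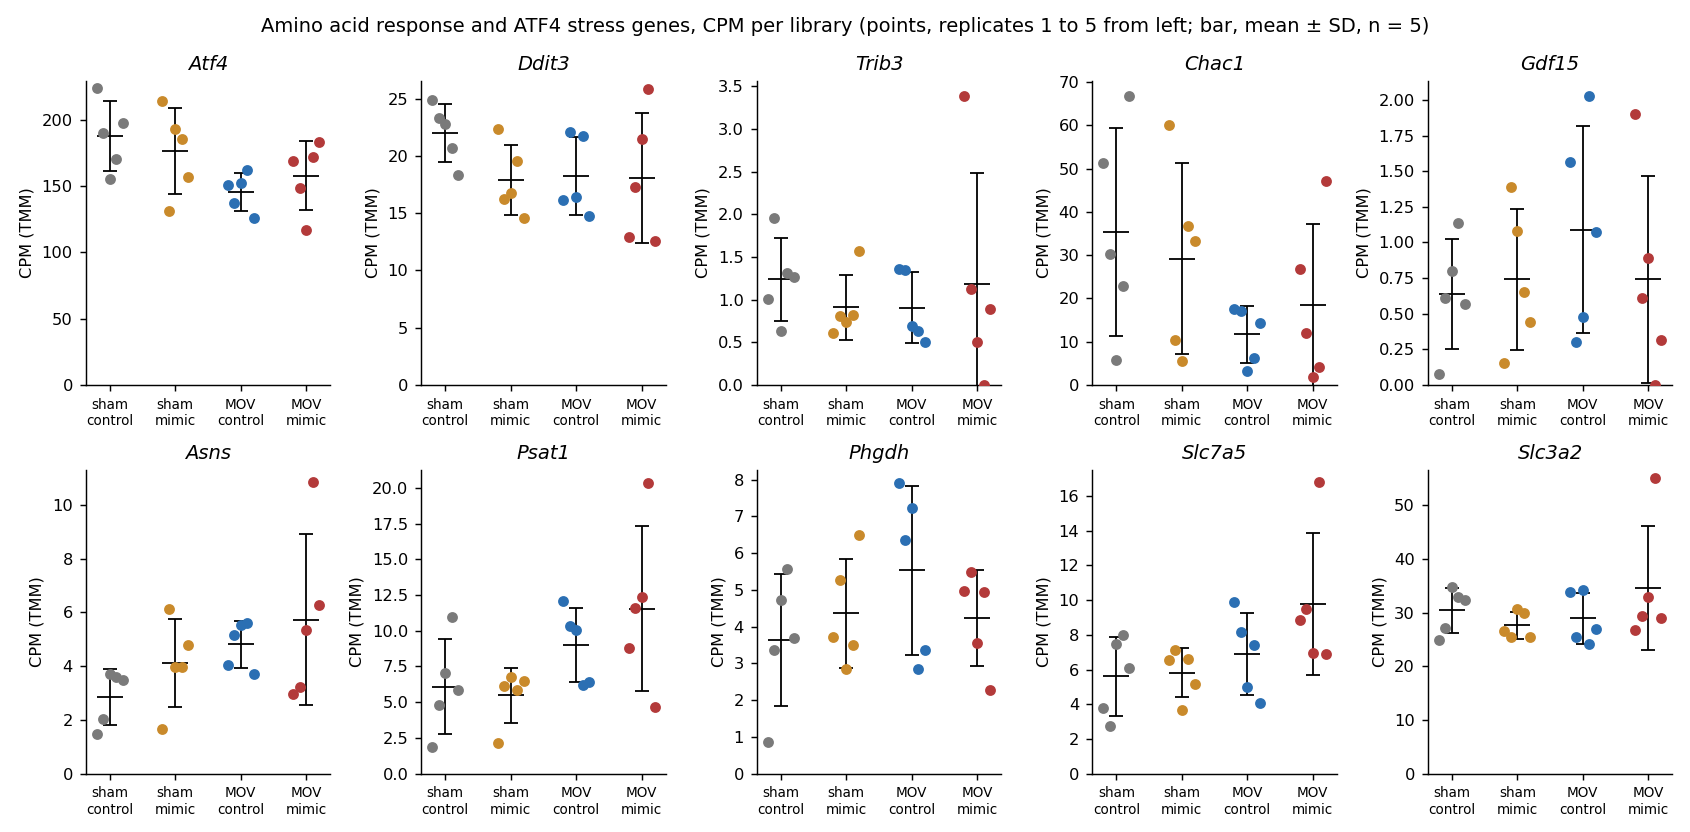
CPM of the 10 genes (vertical axes, from 0) in each library of the 4 groups (horizontal axes), with points for replicates 1 to 5 from left to right and bars for the mean ± SD, n = 5. The groups of every gene overlap, and Chac1 runs from 1.91 to 66.9 CPM, the highest ratio among the 8 genes with a count in every library.

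Atf4 was the most abundant of the 10. It measured 224, 190, 155, 170 and 198 CPM in sham control, 214, 131, 193, 185 and 157 CPM in sham mimic, 151, 137, 153, 162 and 126 CPM in MOV control, and 169, 149, 117, 172 and 183 CPM in MOV mimic, in the order of replicates 1 to 5. MOV control lay lowest, but its highest library, replicate 4, stood above the lowest library of sham control. The mean was 146 CPM ± 14.4 (SD, n = 5) in MOV control and 188 CPM ± 26.3 in sham control. The log2 fold change (Log2FC) was -0.36 with a standard error (SE) of 0.13 and a 95% interval of -0.64 to -0.08, with an unadjusted p of 0.0168 and an adjusted p of 0.170 in the quasi-likelihood test of edgeR. In the mimic-injected muscles the Log2FC of MOV against sham was -0.15 (95% interval -0.51 to 0.21), and the interval of the interaction ran from -0.22 to 0.63, so that a difference between the viruses in the response of Atf4 to MOV was not detectable.

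Ddit3 encodes CHOP, a C/EBP family protein that acts beside ATF4 under prolonged stress. It measured 24.9, 23.3, 22.8, 20.7 and 18.3 CPM in sham control and 22.4, 16.2, 16.8, 19.5 and 14.5 CPM in sham mimic, and it was lower on the mimic side of each of the 5 numbers. In MOV control it measured 16.1, 22.1, 16.4, 21.8 and 14.8 CPM and in MOV mimic 12.9, 17.3, 21.5, 25.9 and 12.6 CPM, and the range of MOV control lay inside that of MOV mimic. The Log2FC of MOV mimic against MOV control was -0.01 (95% interval -0.49 to 0.46). That of MOV control against sham control was -0.26 (95% interval -0.59 to 0.07), and the interaction was 0.28 (95% interval -0.27 to 0.83). The Log2FC of sham mimic against sham control was -0.30 (SE 0.14, 95% interval -0.60 to -0.01) with an unadjusted p of 0.0462 and an adjusted p of 1.00 in edgeR. It was -0.33 without both sham libraries of number 1, a setting chosen after the values were seen, and -0.23 without replicate 5 of sham mimic (unadjusted p 0.11 in edgeR). With equal numbers as a block it was -0.31 (unadjusted p 0.0196, adjusted p 0.9995 in edgeR). The fit without a block treats the libraries as unrelated, and the labels do not say whether equal numbers mark 1 mouse. Because the strand setting of the counting was not given in the sources used here, reads of the parts that Ddit3 shares with Mbd6 and Mars1 cannot be assigned with certainty.

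Trib3, a target of ATF4 and CHOP that binds ATF4 and dampens its activity, was near the limit of detection. It measured 1.01, 1.96, 0.638, 1.32 and 1.27 CPM in sham control, 0.609, 0.811, 0.737, 0.823 and 1.57 CPM in sham mimic, 1.36, 1.35, 0.691, 0.635 and 0.500 CPM in MOV control, and 3.39, 1.12, 0.509, 0 and 0.887 CPM in MOV mimic. The highest and the lowest of the 20 values both came from MOV mimic. Its count was between 0 and 66 per library, and the count of 0 in replicate 4 of MOV mimic, the library with the fewest reads, allows a level of up to 0.221 CPM (3 counts, counting error only). The Log2FC of MOV mimic against MOV control was 0.39 with an SE of 0.85, and without replicate 1 of MOV mimic it was -0.48.

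Chac1, which encodes a γ-glutamylcyclotransferase that breaks down glutathione and is a sensitive ATF4 target in cultured cells, had the largest Log2FC of the 10, by size, between MOV control and sham control, and the highest ratio of highest to lowest library among the 8 genes without a count of 0. It measured 51.3, 30.2, 5.79, 22.9 and 66.9 CPM in sham control and 17.6, 17.1, 3.30, 6.22 and 14.2 CPM in MOV control. Of the sham control libraries, 4 lay above all of MOV control and replicate 3 lay below most of it. It measured 60.1, 10.3, 5.50, 36.6 and 33.3 CPM in sham mimic and 26.9, 12.0, 1.91, 4.13 and 47.1 CPM in MOV mimic, and these overlapped over most of their range. Replicate 3 was the lowest of its group in all 4 groups. The mean was 11.7 CPM ± 6.53 (SD, n = 5) in MOV control against 35.4 CPM ± 24.0 in sham control, a ratio of means of 0.330. The Log2FC was -1.59 (SE 0.57, 95% interval -2.81 to -0.36) with an unadjusted p of 0.0152 and an adjusted p of 0.164 in edgeR, and it stayed between -1.86 and -1.23 when each library was left out in turn. In the mimic-injected muscles the Log2FC was -0.63 (95% interval -2.29 to 1.03), and it ranged from -1.36 without replicate 5 of MOV mimic (unadjusted p 0.0990 in edgeR) to -0.21 without replicate 1 of sham mimic. The interaction was 0.94 with a 95% interval of -1.20 to 3.08, which spans a response in MOV mimic both larger and smaller than that in MOV control. It ranged from 0.23 to 1.40 when each library was left out in turn, and it was 0.52 in edgeR with equal replicate numbers as a block. Against MOV control, MOV mimic had a Log2FC of 0.68, which became -0.05 without replicate 5 of MOV mimic.

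Gdf15, which encodes a cytokine that lowers appetite through a hindbrain receptor and is released by stressed muscle, was also near the limit of detection, at 0 to 37 counts per library. It measured 0.0778, 0.611, 0.797, 1.14 and 0.571 CPM in sham control, 0.152, 1.39, 1.08, 0.650 and 0.441 CPM in sham mimic, 1.56, 0.304, 0.479, 2.03 and 1.07 CPM in MOV control, and 1.90, 0.609, 0.890, 0 and 0.317 CPM in MOV mimic. Both sham libraries of number 1 were the lowest of their group, and the ranges of all groups overlapped. The Log2FC of MOV control against sham control was 0.74 with a 95% interval of -0.63 to 2.12, and that of MOV mimic against sham mimic was 0.01 with a 95% interval of -1.82 to 1.84. The first ranged from 0.37 to 1.04 when each library was left out in turn, and it was 0.16 with voom, an alternative described below. A difference of Gdf15 between groups was not detectable at this depth.

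The 3 synthesis genes had higher mean CPM under MOV than under sham surgery with either virus, except Phgdh with the mimic, and none had an adjusted p under 0.05. Asns encodes asparagine synthetase, which makes asparagine from aspartate and glutamine and is the classical target of the amino acid response. It measured 1.48, 2.02, 3.72, 3.59 and 3.49 CPM in sham control and 4.04, 5.17, 5.53, 5.58 and 3.72 CPM in MOV control. The groups touched only at their edges, where replicate 5 of MOV control lay just below replicate 3 of sham control. The Log2FC was 0.75 (SE 0.30, 95% interval 0.11 to 1.39) with an unadjusted p of 0.0248 and an adjusted p of 0.202 in edgeR, and it stayed between 0.59 and 0.86 when each library was left out. In sham mimic Asns measured 1.67, 6.14, 3.98, 3.98 and 4.79 CPM and in MOV mimic 2.98, 3.23, 5.34, 10.8 and 6.27 CPM. These overlapped, and the Log2FC was 0.47 (95% interval -0.42 to 1.36), of which 0.12 was left without replicate 4 of MOV mimic.

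Psat1 and Phgdh encode successive enzymes of serine synthesis from glucose, phosphoserine aminotransferase and phosphoglycerate dehydrogenase. Psat1 measured 1.87, 4.83, 7.01, 11.0 and 5.84 CPM in sham control, 2.13, 6.14, 6.78, 5.89 and 6.49 CPM in sham mimic, 12.1, 10.3, 10.1, 6.22 and 6.43 CPM in MOV control, and 8.77, 11.6, 12.3, 20.3 and 4.69 CPM in MOV mimic. In MOV mimic 4 of 5 libraries lay above all of sham mimic, and replicate 5 lay below all of it but replicate 1. The mean was 11.5 CPM ± 5.76 (SD, n = 5) in MOV mimic and 5.49 CPM ± 1.91 in sham mimic. The Log2FC was 1.07 (SE 0.38, 95% interval 0.25 to 1.88) with an unadjusted p of 0.0148 and an adjusted p of 0.304 in edgeR, and without replicate 4 of MOV mimic it was 0.76 with an unadjusted p of 0.0546. Without replicate 5 of MOV mimic it was 1.25 (unadjusted p 0.00287, adjusted p 0.0822 in edgeR). In the control-injected muscles it was 0.57 (95% interval -0.23 to 1.36), and it ranged from 0.34 without replicate 1 of sham control to 0.88 without replicate 4 of sham control (unadjusted p 0.0280, adjusted p 0.215 in edgeR).

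Phgdh measured 0.855, 3.36, 4.73, 5.57 and 3.68 CPM in sham control, 3.73, 5.27, 2.85, 3.51 and 6.49 CPM in sham mimic, 7.92, 6.35, 7.23, 2.86 and 3.36 CPM in MOV control, and 4.98, 5.48, 3.56, 4.94 and 2.28 CPM in MOV mimic. Replicates 1, 2 and 3 of MOV control stood above all of sham control, while replicates 4 and 5 lay among its lower libraries. The Log2FC was 0.61 (95% interval -0.31 to 1.54) in control-injected and -0.03 (95% interval -0.74 to 0.68) in mimic-injected muscles. The first ranged from 0.36 without replicate 1 to 0.81 without replicate 4 of sham control. The interaction was -0.64 with a 95% interval of -1.79 to 0.51, so that a different response of the viruses was not detectable. The annotation also holds a pseudogene named Phgdh-ps1, and how the counting treated reads with several alignments was not given in the sources used here.

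Slc7a5 (LAT1) and Slc3a2 (CD98 heavy chain) form the heterodimer that brings leucine and other large neutral amino acids into the cell in exchange for glutamine, upstream of mTORC1. Slc7a5 measured 3.81, 2.75, 7.49, 7.96 and 6.09 CPM in sham control, 6.55, 7.12, 3.69, 6.58 and 5.16 CPM in sham mimic, 9.89, 8.13, 5.00, 7.43 and 4.07 CPM in MOV control, and 8.82, 9.50, 6.93, 16.8 and 6.91 CPM in MOV mimic. Of the MOV mimic libraries, 3 lay above all of sham mimic and the other two lay between its highest libraries. The mean was 9.79 CPM ± 4.08 (SD, n = 5) in MOV mimic and 5.82 CPM ± 1.40 in sham mimic. The Log2FC was 0.76 (SE 0.28, 95% interval 0.14 to 1.37) with an unadjusted p of 0.0199 and an adjusted p of 0.314 in edgeR. Without replicate 4 of MOV mimic it was 0.48 with an unadjusted p of 0.0616. Between MOV mimic and MOV control the Log2FC was 0.50 (95% interval -0.17 to 1.17), and it was 0.23 without that library. In the control-injected muscles the Log2FC of MOV against sham was 0.30 (95% interval -0.41 to 1.02). The interaction was 0.45 with a 95% interval of -0.48 to 1.39.

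Slc3a2 varied least of the 5 synthesis and transport genes. It measured 24.9, 27.1, 34.8, 32.9 and 32.3 CPM in sham control, 26.6, 25.4, 30.6, 29.9 and 25.4 CPM in sham mimic, 33.9, 25.5, 34.1, 24.2 and 26.9 CPM in MOV control, and 26.7, 29.3, 32.8, 55.0 and 29.0 CPM in MOV mimic. Replicate 4 of MOV mimic stood alone above the other 19. The Log2FC of MOV control against sham control was -0.06 with a 95% interval of -0.38 to 0.25. That of MOV mimic against sham mimic was 0.33 with a 95% interval of -0.08 to 0.73, and it was 0.11 without replicate 4 of MOV mimic. Per kilobase of the longest annotated transcript, the CPM of Slc3a2 was between 3.78 and 12.3 times that of Slc7a5 over the 20 libraries. With the control virus its median was 6.63 after sham surgery and 4.28 after MOV, and with the mimic virus 5.68 and 4.09.

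**Figure D2:**
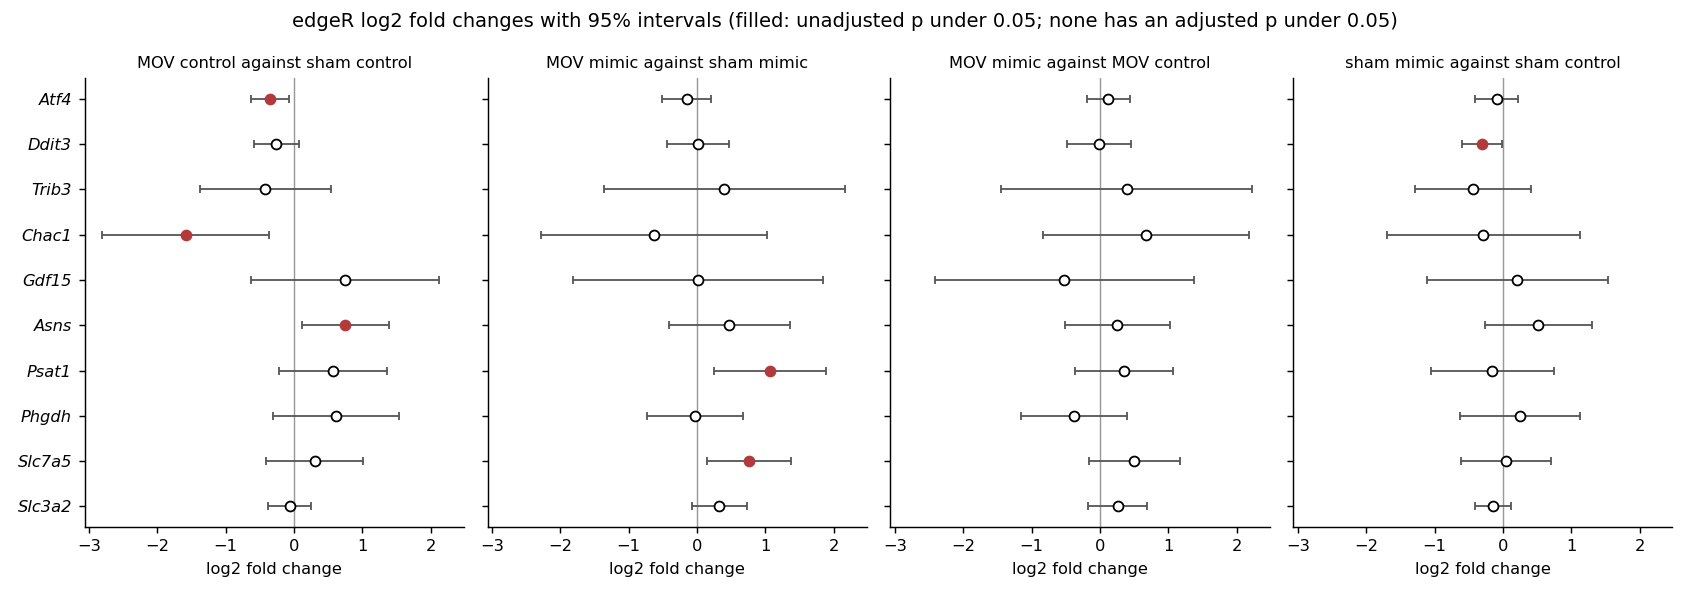
Log2FC from edgeR (horizontal axis) of the 10 genes (vertical axis) in the 4 comparisons of 5 against 5 libraries, with 95% intervals, where filled points have an unadjusted p under 0.05. Filled points are Atf4, Chac1 and Asns in MOV control against sham control, Psat1 and Slc7a5 in MOV mimic against sham mimic, and Ddit3 in sham mimic against sham control.

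Across all genes no member of the set was a DEG (adjusted p under 0.05 in edgeR) in any comparison, and this count has to be read against a background that was itself close to empty. In MOV control against sham control 1 of 14974 genes was called, which is 0.00668%. The share called was 0.0% in MOV mimic against sham mimic, in both comparisons of mimic with control and for the interaction of surgery and virus. At an unadjusted p under 0.05, 1 of the 10 genes was higher (Asns) and 2 were lower (Chac1 and Atf4) in MOV control than in sham control, against 18.2% of all genes in either direction. Between MOV mimic and sham mimic 2 were higher in MOV (Psat1 and Slc7a5), against 13.4%. Between MOV mimic and MOV control 0 of 10 passed, against 4.21%. In sham mimic against sham control 1 was lower (Ddit3), against 1.72%, and for the interaction 0 of 10 passed, against 2.64%. With 10 genes, counts of this size stand near the background and are no result about the set.

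DESeq2 called 6.1% of genes in MOV control against sham control and 1.48% in MOV mimic against sham mimic, and it called none of the 10 in either. Its smallest adjusted p within the set were 0.0752 for Atf4 in the first and 0.136 for Psat1 in the second. With equal replicate numbers as a block, DESeq2 called 4.82% of genes in MOV control against sham control and 1 member, Chac1, whose Log2FC was -1.47 (adjusted p 6.6e-06), while edgeR with the same block gave Chac1 an adjusted p of 0.103. Sham and MOV surgery were done on different mice, so the block joins unrelated muscles in this comparison. In no member did the MOV and sham groups separate completely, against 4.89% of genes with groups without overlap in MOV control against sham control and 2.73% in MOV mimic against sham mimic.

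The direction within the set was mixed. In MOV control against sham control 5 genes had a positive and 5 a negative Log2FC, with a median of 0.12 beside 0.04 over all genes. The positive ones were the synthesis genes Asns, Psat1 and Phgdh together with Slc7a5 and Gdf15, and the negative ones were Atf4, Ddit3, Trib3, Chac1 and Slc3a2. With the mimic, MOV against sham had 7 positive values and the median was 0.17, beside 0.02 over all genes. These comparisons use different libraries, and the lowest negative value in both was that of Chac1. The mimic against control had 7 positive values in MOV with a median of 0.26 beside -0.01, and in sham mimic against sham control 4 were positive with a median of -0.12 beside 0.00. The interaction shares libraries with all of these and had a median of 0.34 beside -0.01.

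Both sham libraries of number 1, which stood apart, held the lowest Asns and Psat1 of their groups, while Phgdh was lowest in that of sham control only. Without replicate 1 of sham control, the Log2FC of MOV control against sham control was 0.59 for Asns (unadjusted p 0.0501 in edgeR), 0.34 for Psat1, 0.36 for Phgdh, -0.29 for Atf4 and -1.42 for Chac1. Without replicate 1 of sham mimic, that of MOV mimic against sham mimic was 0.27 for Asns, 0.86 for Psat1, -0.09 for Phgdh and -0.21 for Chac1. Leaving out other libraries moved some of these values the other way, as given above for Psat1, Phgdh and Chac1.

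Inside MOV, the mimic comparison leaned on replicate 5 of MOV mimic for Chac1 and on replicate 1 for Trib3, as given above. For Asns, Psat1, Slc7a5 and Slc3a2 it leaned on replicate 4 of MOV mimic. This library had the highest CPM of all 20 for Asns, Psat1, Ddit3, Slc7a5 and Slc3a2, had no count of Trib3 and Gdf15, and had the fewest counts, 12036360, and the fewest genes with a count. Without it the Log2FC of MOV mimic against MOV control was -0.10 for Asns, 0.06 for Psat1, 0.23 for Slc7a5 and 0.04 for Slc3a2, against 0.25, 0.35, 0.50 and 0.26 with it. Its summed satellite cell and myoblast markers were the highest of MOV mimic at 199 CPM, against a group median of 117 CPM, while its fibroblast (7181 against 9588 CPM), adipocyte (1.03 against 4.71 CPM) and Schwann cell markers (14.4 against 18.9 CPM) were the lowest. The part of these cells in the values was not tested.

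**Figure D3:**
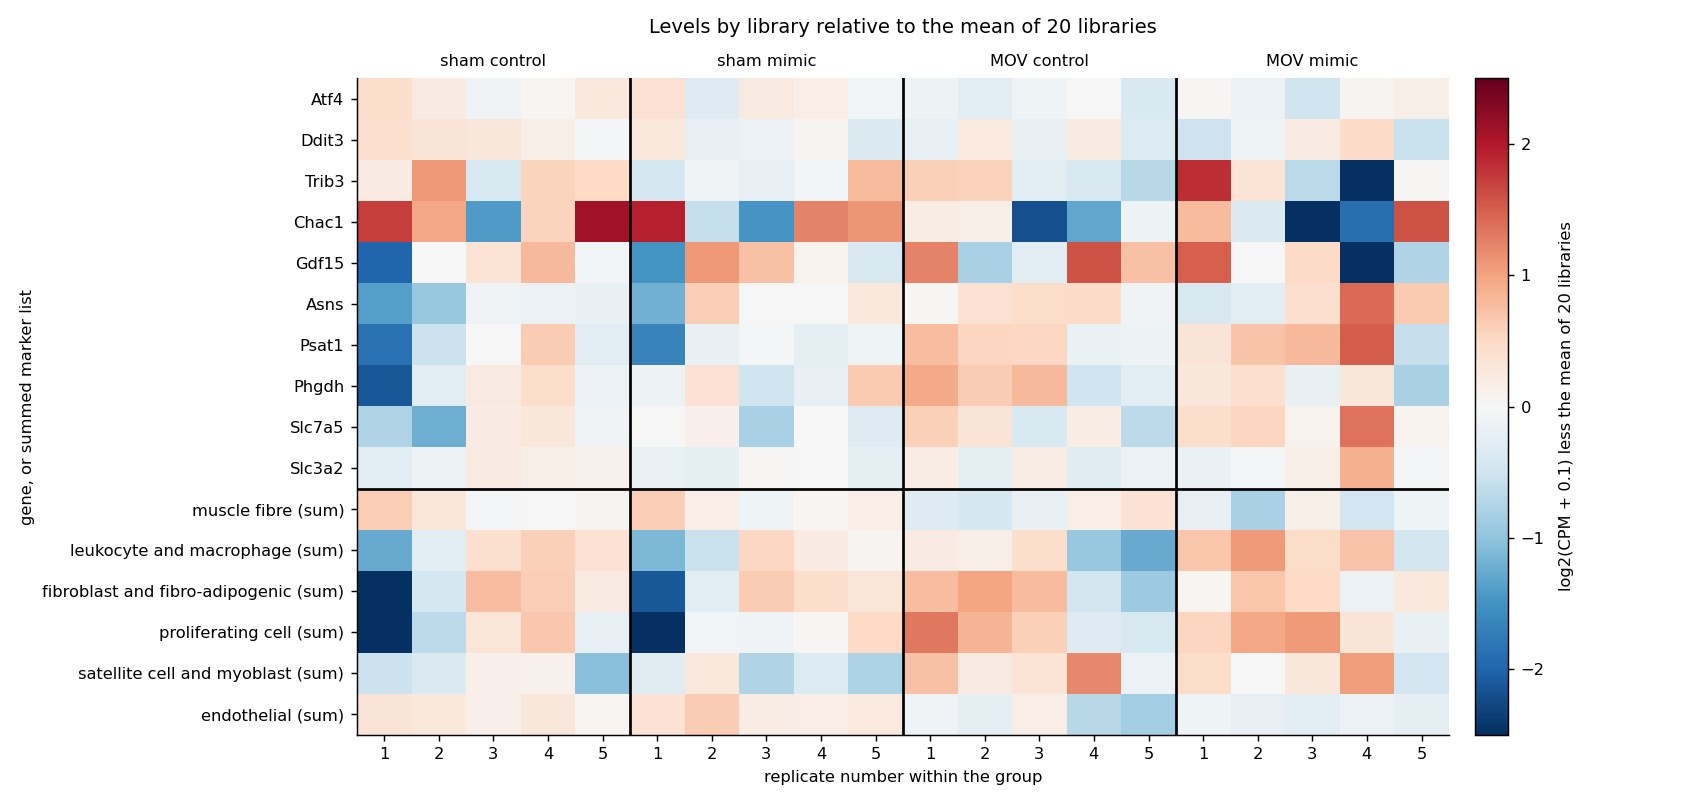
Log2(CPM + 0.1) less the mean of the 20 libraries (colour) for the 10 genes and, below the line, for 6 summed marker lists (rows) in each library (columns, replicates 1 to 5 of each group). Both sham libraries of number 1 are low in Gdf15, Asns, Psat1 and the fibroblast and proliferation markers, and replicate 4 of MOV mimic is high in Asns, Psat1, Slc7a5 and Slc3a2.

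Levels of different genes can be ranked only per length. Per kilobase of the longest annotated transcript, the median CPM over 20 libraries was 96.1 for Atf4, 21.3 for Ddit3, 10.6 for Chac1, 10.4 for Slc3a2, 2.53 for Psat1, 2.23 for Phgdh, 1.98 for Asns, 1.97 for Slc7a5, 0.422 for Trib3 and 0.408 for Gdf15. Atf4, at 67.9 to 130 CPM per kilobase, lay above the range of every other gene. Ddit3, at 14.2 to 29.1, and Slc3a2, at 8.60 to 19.5 CPM per kilobase, overlapped each other but lay above the 6 genes from Psat1 (0.713 to 7.77) down, whose ranges overlapped those of their neighbours. Chac1, at 1.17 to 40.9 CPM per kilobase, overlapped every gene but Atf4. The pooled order also hides the groups, since the median of Chac1 was 18.5 and 20.3 CPM per kilobase in sham control and sham mimic but 8.69 and 7.35 in MOV control and MOV mimic. Chac1 thus stood above Ddit3 (18.9) in sham mimic and below Slc3a2 (9.55 and 10.4) in both MOV groups. From the lowest to the highest library, CPM spanned 1.91-fold for Atf4, 2.05-fold for Ddit3 and 2.27-fold for Slc3a2, but 6.11-fold for Slc7a5, 7.33-fold for Asns, 9.26-fold for Phgdh, 10.9-fold for Psat1 and 35.1-fold for Chac1.

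Within groups the genes did not move as one set. The correlations here are over 20 libraries after subtracting each group's mean of log2 CPM, and they are descriptions, because libraries share mice, depth and tissue makeup. Psat1 and Phgdh, neighbours in one pathway, had a Pearson's r of 0.76 and a Spearman's rho of 0.67, and r was 0.70 without the 2 libraries farthest from the median. Psat1 also had an r of 0.64 with Asns (rho 0.58, r = 0.45 without 2 libraries) and of 0.64 with Slc3a2 (rho 0.70, r = 0.68). The transporter partners Slc7a5 and Slc3a2 had an r of 0.49 and a rho of 0.42. Atf4 went with Chac1 (r = 0.50, rho = 0.50, r = 0.31 without 2 libraries) and against Psat1 (r = -0.50, rho = -0.50, r = -0.56), and its r with Asns was -0.36 and with Phgdh -0.44. Without both sham libraries of number 1, over 18 libraries, r was 0.69 for Psat1 and Phgdh and 0.69 for Psat1 and Slc3a2, but 0.34 for Psat1 and Asns, -0.23 for Atf4 and Psat1, -0.30 for Atf4 and Phgdh and -0.05 for Atf4 and Asns. These last values were thus nearer to 0 without those libraries, and in neither set of libraries did Atf4 have a positive r with a synthesis gene.

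Some marker lists moved with the serine synthesis genes within groups and others against them. For Psat1 r was 0.87 (rho 0.78) with the summed proliferation markers, 0.84 (rho 0.69) with 10 leukocyte and macrophage markers, 0.77 (rho 0.68) with fibroblast markers, 0.36 with satellite cell and myoblast markers, 0.15 with endothelial markers, -0.29 with adipocyte, -0.44 with erythroid, -0.63 with Schwann cell and -0.70 with muscle fibre markers. For Phgdh the first 3 were 0.74, 0.74 and 0.68, and the last 2 were -0.53 and -0.63. Without both sham libraries of number 1, r of Psat1 was 0.70 with proliferation, 0.72 with leukocyte, 0.42 with fibroblast and -0.53 with fibre markers, and that of Phgdh was 0.80, 0.67, 0.49 and -0.57.

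Asns had an r of 0.53 (rho 0.38) with proliferation, 0.36 with leukocyte and 0.54 with fibroblast markers, and without the same libraries these were -0.03, -0.06 and 0.02, so its relation rested on them. Atf4 had an r of -0.59 with the proliferation markers, and -0.35 without those libraries. Slc7a5 had an r of 0.61 with the satellite cell and myoblast markers, also without those libraries, and of -0.61 with Schwann cell markers. The satellite cell list had a median sum of 75.2 CPM after sham surgery and 123 CPM after MOV with the control virus, and of 76.2 and 117 CPM with the mimic, with 2 of 7 genes higher at an unadjusted p under 0.05 in edgeR with the control virus and 1 of 7 with the mimic (18.2% and 13.4% of all genes in either direction). The part of these cells in the Slc7a5 values was not tested.

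Between MOV and sham the summed proliferation, leukocyte, fibroblast and fibre markers overlapped, and no gene of these 4 lists had an adjusted p under 0.05 in edgeR. Proliferation markers summed to 28.2 to 93.4 CPM in MOV control and 33.1 to 78.1 CPM in MOV mimic, against 6.61 to 59.5 CPM in sham control and 5.71 to 52.6 CPM in sham mimic, and 1 of 6 of them was higher at an unadjusted p under 0.05 in edgeR in each comparison of MOV with sham (18.2% of all genes with the control virus and 13.4% with the mimic). Leukocyte markers summed to 646 to 1862 CPM in MOV mimic and 407 to 1276 CPM in sham mimic, with 3 of 10 higher at an unadjusted p under 0.05 (13.4% of all genes), while in MOV control they summed to 369.7 to 1208 CPM and in sham control to 369 to 1339 CPM with 0 of 10 (18.2% of all genes). Between MOV mimic and MOV control 3 of 10 leukocyte markers were higher (4.21% of all genes) with a median Log2FC of 0.56, and for the interaction 2 of 10 (2.64%) with a median of 0.87. Of 8 fibroblast markers 0 were higher and 1 was lower in MOV control than in sham control (median Log2FC -0.11) and 0 of 8 passed with the mimic (-0.02), and of 10 fibre markers 1 was higher and 2 were lower with either virus (-0.06 and -0.41), beside 18.2% of all genes with the control virus and 13.4% with the mimic. Endothelial markers summed to 279 to 386 CPM in sham mimic and 207 to 231 CPM in MOV mimic, without overlap, and 4 of 6 were lower at an unadjusted p under 0.05 (13.4% of all genes, median Log2FC -0.51). With the control virus their sums overlapped, at 256 to 311 CPM after sham surgery and 138 to 281 CPM after MOV, and 3 of 6 were lower (18.2% of all genes, median -0.43). Of the 3 erythroid markers matched, all 3 were lower at an unadjusted p under 0.05 with the control virus (18.2% of all genes, median -1.30) and 0 with the mimic (13.4%, median -0.16), and 1 of 3 passed for the interaction (2.64%). Of the adipocyte markers tested 1 of 4 was lower with the control virus and 1 of 3 with the mimic, and of 4 Schwann cell markers 0 passed with either, beside the same shares. None of these had an adjusted p under 0.05. No gene of these lists was at 0 in all libraries of a group, and the part of these cells in the levels of Psat1, Phgdh and Asns was not tested.

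**Figure D4:**
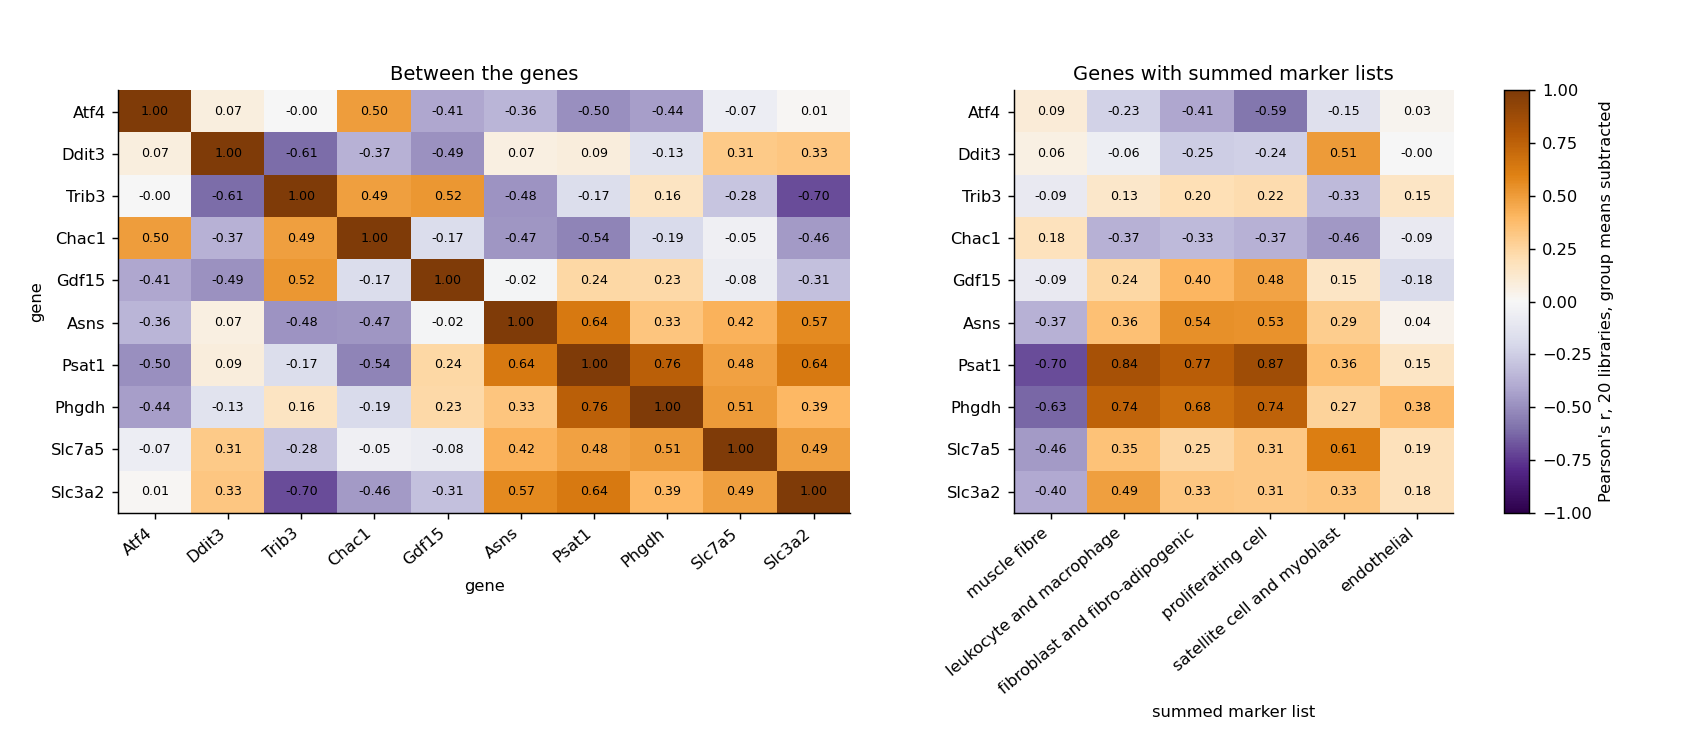
Pearson's r over 20 libraries after subtracting group means (colour and numbers) between the 10 genes (left) and between these genes and 6 summed marker lists (right). Psat1 and Phgdh have r of 0.74 to 0.87 with the leukocyte and proliferation lists and of -0.63 and -0.70 with the muscle fibre list.

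The genes most like Atf4 by the same measure, among 16165 others, were Bnip2, Il15ra and Spns2, each with an r of 0.82. Those most like Asns were Nus1 and Rasal2 at 0.88 and Ros1 at 0.86. Those most like Slc7a5 were Taf1d at 0.88, the gene ENSMUSG00000101995, which had no symbol, at 0.86, and Foxp3 at 0.83. Each r was picked as the highest of 16165, and none was computed without the libraries that stood apart.

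The wider pathway gave no DEG in edgeR either. Of 30 other genes linked to ATF4, 28 were tested in MOV control against sham control, where 6 were higher and 5 lower at an unadjusted p under 0.05 (18.2% of all genes in either direction), with a median Log2FC of -0.05. The smallest p belonged to Cebpg, a C/EBP protein that pairs with ATF4, at 38.3 CPM ± 3.23 (SD, n = 5) in MOV control against 64.9 CPM ± 14.4 in sham control, with a Log2FC of -0.75 (SE 0.15) and an adjusted p of 0.0554. Nupr1, a stress-induced chromatin protein, followed at -0.72 (SE 0.16, adjusted p 0.0568). In the same direction were the lipoprotein receptor gene Vldlr at -0.96 and the ATF4 relative Atf5 at -0.85, while the secreted glycoprotein gene Stc2 at 0.90 and the proline synthesis gene Pycr1 at 0.86 had higher means. These last 4 were named after their values were seen. The ATF4 target list thus held members in both directions, as the 10 genes did.

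With the mimic, 1 of 27 tested genes of that list was higher and 2 were lower in MOV than in sham at an unadjusted p under 0.05 (13.4% of all genes). The folate enzyme gene Aldh1l2 had a Log2FC of 0.73 (SE 0.27, adjusted p 0.312) and the glutamine transporter gene Slc38a2 one of -0.46 (SE 0.19, adjusted p 0.340). For MOV mimic against MOV control 3 of 28 were higher and 0 lower (4.21% of all genes), among sham libraries 0 of 27 passed, and for the interaction 0 of 28 passed. The summed CPM of this list had an r of 0.78 with Atf4 within groups and of -0.57 with Psat1 and -0.55 with Phgdh, and without both sham libraries of number 1 these were 0.72, -0.44 and -0.55. Over 20 libraries r was 0.50 for Chac1, 0.13 for Ddit3, -0.04 for Slc7a5, -0.09 for Trib3, -0.15 for Asns, -0.18 for Slc3a2 and -0.37 for Gdf15. Abundant genes weigh most in such a sum, such as Vldlr (mean 306 CPM in sham control) and Slc38a2 (154 CPM).

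The cytosolic aminoacyl-tRNA synthetases load amino acids onto transfer RNA, and many are known ATF4 targets. Of 20 tested, 1 was higher and 5 were lower at an unadjusted p under 0.05 in MOV control against sham control (18.2% of all genes in either direction), with a median Log2FC of -0.01. Cars (Log2FC -0.33, unadjusted p 0.0496 in edgeR) is also in the list of other ATF4-linked genes and is counted as lower in both. Vars, for valine, had a Log2FC of 0.58 (SE 0.13, adjusted p 0.0626), from 37.3 CPM ± 5.82 to 55.4 CPM ± 4.39. Iars, for isoleucine, had one of -0.65 (SE 0.17, adjusted p 0.0770), from 77.7 CPM ± 20.3 to 49.3 CPM ± 5.96. Between MOV mimic and sham mimic 1 was higher and 2 were lower (13.4% of all genes), and Iars and Vars again had the smallest p, at -0.54 and 0.31. In both comparisons of mimic with control and for the interaction 0 of 20 passed. The motif letters TGATGNAA were found in 5 of 13 synthetase promoters, those of Aars, Gars, Iars, Tars and Yars, and in 8 of 30 promoters of the other ATF4-linked genes, but in 0 of 11 promoters of eIF2α kinases and regulators and 1 of 13 of the endoplasmic reticulum stress genes (Herpud1), beside the 3 of 11 and the 3.97% given above.

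The summed synthetases ran against the serine synthesis genes within groups, with an r of -0.84 (rho -0.72) for Psat1 and -0.78 (rho -0.75) for Phgdh, and had an r of 0.44 with Atf4 and 0.50 with Chac1. Without both sham libraries of number 1 r was -0.69 for Psat1, -0.77 for Phgdh and 0.16 for Atf4. Their sums were 1337 to 1849 CPM in sham control, 1422 to 1859 CPM in sham mimic, 1268 to 1627 CPM in MOV control and 1303 to 1611 CPM in MOV mimic. The ranges of all groups overlapped.

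Upstream, of 13 eIF2α kinases and regulators 1 was higher and 0 lower in MOV control against sham control at an unadjusted p under 0.05 (18.2% of all genes). It was Gcn1, the ribosome-bound activator of GCN2, at 64.8 CPM ± 12.0 against 50.1 CPM ± 4.81, a Log2FC of 0.38 (SE 0.15, adjusted p 0.191). Impact, an inhibitor of that activation, followed at 0.25 (SE 0.15, adjusted p 0.397). With the mimic, 2 of 13 passed (13.4% of all genes), Gcn1 at 0.39 (SE 0.17, adjusted p 0.364) and Eif2s1, which encodes eIF2α itself, at -0.29 (SE 0.13, adjusted p 0.365). In the other three comparisons 0 of 13 passed. The phosphorylation of eIF2α, on which the pathway turns, is not seen in RNA counts.

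Of 16 genes of the ATF6 and XBP1 arms of the endoplasmic reticulum stress response, 1 was higher and 2 were lower at an unadjusted p under 0.05 in MOV control against sham control (18.2% of all genes). The cochaperone gene Dnajb9 had a Log2FC of -0.36 (SE 0.15, adjusted p 0.220) and Herpud1, which acts in degradation of misfolded proteins, one of -0.46 (SE 0.19, adjusted p 0.223). With the mimic, 1 of 16 was higher (13.4% of all genes in either direction), the secreted factor gene Manf at 0.59 (SE 0.26, adjusted p 0.358), and the chaperone gene Hyou1 was at 0.32 (SE 0.16, adjusted p 0.421). In the other three comparisons 0 of 16 passed.

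**Figure D5:**
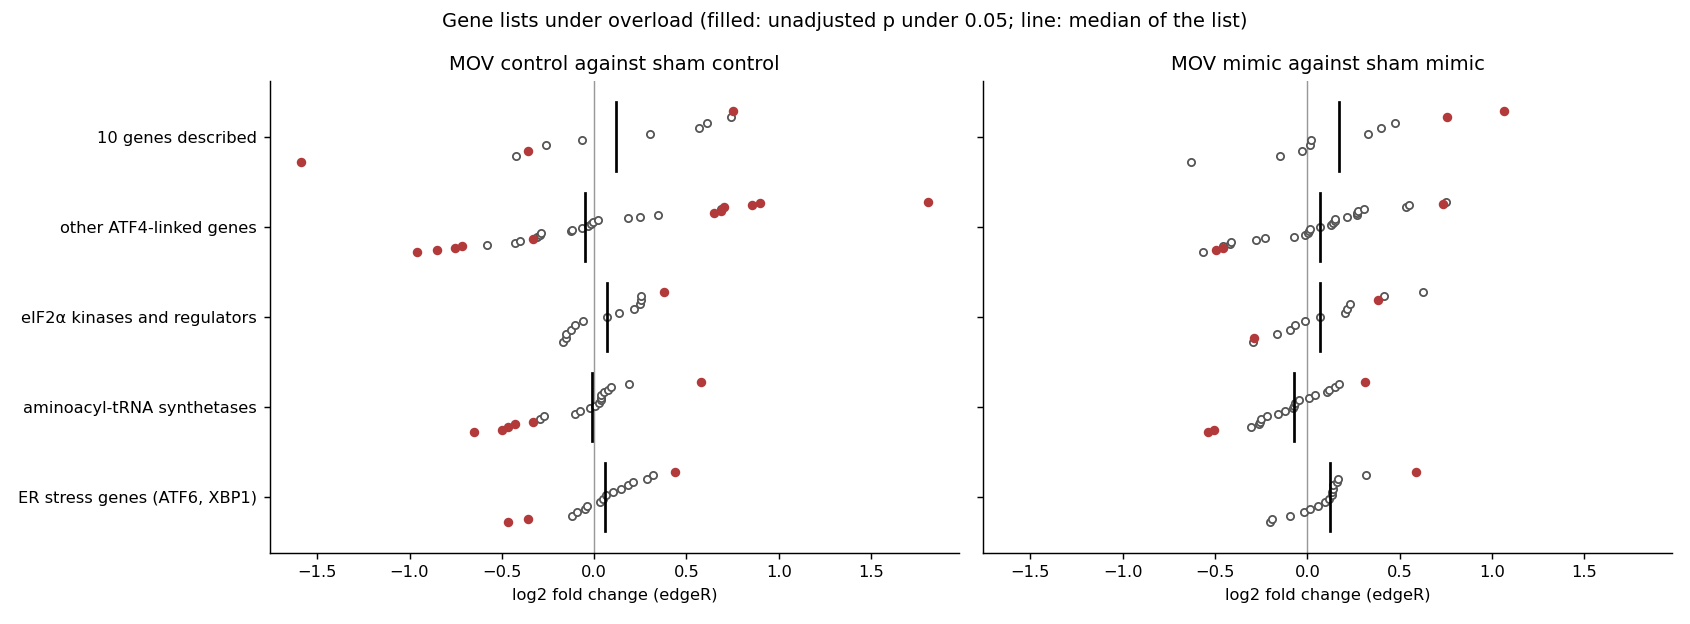
Log2FC from edgeR (horizontal axis) of each tested gene of the 10 described and of 4 other lists (rows) in MOV control against sham control (left) and MOV mimic against sham mimic (right), where filled points have an unadjusted p under 0.05 and lines mark the median of the list. Each list holds genes on both sides of 0, and the medians of the other lists lie between -0.07 and 0.13.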

How the data were processed

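RNA-seq was carried out on plantaris muscle with the NEBNext Ultra II kit, with 5 libraries in each of 4 groups taken from the sample titles. The deposited values are raw counts per Ensembl gene, in 2 tables split by virus. Per the paper's methods and the submitters' processing notes, reads were checked with FastQC 0.11.9, trimmed with Trim Galore 0.6.10 on Cutadapt 4.4, aligned to GRCm38 with Hisat2 2.0.5 and counted with featureCounts 1.5.0-p3. Which annotation release was used, whether strand was counted and how multi-mapped reads were treated is not given in the sources used here. The labels do not say which libraries come from one mouse, and p-values measure the spread between these libraries.

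Symbols were found for 32640 of 54532 genes. Comparisons used edgeR 4.0.16 (R 4.3.3) and its quasi-likelihood test after TMM scaling and filterByExpr, on the 10 libraries of each comparison, or on all 20 for the interaction, two-sided, with Benjamini-Hochberg adjustment over all genes tested and a threshold of 0.05. All 10 genes passed the filter in every comparison. Every 95% interval is that of the edgeR coefficient. Log2 CPM used a prior count of 2. Alternatives were DESeq2 1.42.0, edgeR with DESeq2's size factors, a minimum of 10 counts over the libraries in place of filterByExpr, no filter, limma 3.58.1 with voom and sample weights, a block of equal replicate numbers (edgeR and DESeq2), all 20 libraries, and each library left out in turn. Leaving out both sham libraries of number 1 was added after the values were seen. The fits were also run on simulated counts. These were drawn independently, without shared mice, outlying libraries or differences in tissue makeup, so that run does not cover these features of the data. Pairs of libraries of one group differed beyond sampling noise (40 pairs, chi-square per gene of 13.9 or more).

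The 10 genes, the marker lists and the pathway lists were chosen with earlier results of these data known. All 10 genes were named in every comparison. Of the other lists the 2 genes with the smallest p were named in each comparison of MOV with sham, where none had an adjusted p under 0.05, and the 3 genes most correlated with Atf4, Asns and Slc7a5. Cars was named because it is in 2 lists. Of 5 erythroid markers 3 were matched. Transcript lengths came from GENCODE vM1 on NCBIM37. Mature miR-1 was not analysed here.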

Additional observations from a re-analysis of the deposited data

Results flagged for a closer look

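Among 40 groups of 5 libraries (10 genes in 4 groups), 4 had an extreme library whose gap to the next, divided by the range of the group, was above Dixon's critical value of 0.71. About 1 in 20 groups is expected to do so by chance. Psat1 was lowest in replicate 1 of sham mimic at 2.13 CPM, with the next library at 5.89 CPM (ratio 0.808). Trib3 was highest in replicate 5 of sham mimic at 1.57 CPM, with the next at 0.823 CPM (ratio 0.778), which stands on 25 counts. Replicate 4 of MOV mimic was highest in Slc7a5 at 16.8 CPM, with the next at 9.50 CPM (ratio 0.738), and in Slc3a2 at 55.0 CPM, with the next at 32.8 CPM (ratio 0.784). The transporter partners were thus high together in 1 library, and the values without it are given with the results.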

How the results depend on the processing

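The count of 0 called genes in the set held under every alternative and every library left out, except that DESeq2 with the replicate block called 1 in MOV control against sham control, Chac1 at a Log2FC of -1.47. Over all genes, MOV control against sham control had 1 DEG in edgeR, 913 with DESeq2, 388 with no filter, 163 with at least 10 counts, 294 with voom, 722 with DESeq2 and the replicate block, 36 with all 20 libraries in the fit and 0 to 426 with 1 library left out (426 without replicate 3 of sham control, 318 without replicate 5 of MOV control). MOV mimic against sham mimic had 0, and 221, 1 and 2 with DESeq2, no filter and voom, 116 with DESeq2 and the replicate block, 3 with all 20 libraries and 0 to 101 with 1 left out (101 without replicate 5 of MOV mimic). MOV mimic against MOV control had 0, 3 with DESeq2, 127 with DESeq2 and the replicate block and 1 with all 20. The interaction had 0, 1 with DESeq2 and 5 with its replicate block. The cause was not tested.

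Of 410 Log2FC of the 10 genes under other settings 18 changed sign and 391 kept both sign and call, as did 567 of 600 with 1 library left out. With voom, in MOV mimic against sham mimic Asns was -0.030, Phgdh 0.12 and Ddit3 -0.10, and in MOV mimic against MOV control Asns was -0.25 and Gdf15 0.13. With the replicate block in edgeR and in DESeq2, MOV mimic against sham mimic gave Trib3 -0.30 and -0.36, Ddit3 -0.015 and -0.013 and Gdf15 -0.47 and -0.56, and MOV mimic against MOV control gave Trib3 -0.19 and -0.23. With no filter and with at least 10 counts, MOV mimic against sham mimic gave Ddit3 -0.019 and -0.015 and Gdf15 -0.035 and -0.018. Without both sham libraries of number 1 the Log2FC of Slc7a5 in sham mimic against sham control was -0.10.

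With 1 library left out, signs changed within these ranges. For MOV mimic against sham mimic they were -0.16 to 0.15 for Phgdh, -0.49 to 0.71 for Trib3, -0.14 to 0.12 for Ddit3 and -0.69 to 0.34 for Gdf15. For MOV mimic against MOV control they were -0.10 to 0.43 for Asns, -0.48 to 0.70 for Trib3, -0.17 to 0.10 for Ddit3 and -0.049 to 0.97 for Chac1. In sham mimic against sham control they were -0.16 to 0.0032 for Atf4, -0.38 to 0.17 for Psat1, -0.71 to 0.082 for Chac1, -0.12 to 0.21 for Slc7a5 and -0.11 to 0.52 for Gdf15, and for the interaction -0.044 to 1.15 for Trib3.

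Libraries of equal number within a surgery deviated together over 11817 genes, with r of 0.0808 to 0.470 in MOV and 0.00963 to 0.854 in sham. In each surgery 4 of 5 pairs were over 0.1, and 5 of 5 libraries in MOV and 2 of 5 in sham correlated best with their own number, so the replicate block stays an alternative and the pairing is a hint from the data.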

Other observations

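Chac1 was lowest in the library of number 3 in all 4 groups, at 5.79, 5.50, 3.30 and 1.91 CPM in the order sham control and sham mimic, then MOV control and MOV mimic. Ddit3 was lowest in the library of number 5 in all 4 groups, at 18.3, 14.5, 14.8 and 12.6 CPM. Of 16166 genes, 123 (0.761%) had their lowest value in the same number in all 4 groups and 127 (0.786%) their highest. Sham and MOV libraries of one number come from different mice, and the pattern was seen before it was counted.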
